A study of Homo sapiens with 8 samples.

Results

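The genes described here are 8 receptor tyrosine kinases: PDGFRA, MET, FGFR1, FGFR2, FGFR3, FGFR4, RET and AXL. They were taken by gene symbol from 3 tables of polyadenylated RNA sequenced in prostate cancer cell lines. Of the 8 symbols, 7 were listed in at least 1 table and 5 (MET and FGFR1 to FGFR4) in all 3, among 16126 genes listed in at least 1 table and 12868 listed in all 3. The tables of C4-2B and CWR-R1 each held 6 of the receptors and that of VCaP held 5. PDGFRA was listed for CWR-R1 alone and RET for C4-2B alone. AXL, the receptor for the ligand GAS6, was listed in none and was not analysed here. The receptors were chosen with results of the same contrasts known, so their differences are given as descriptions, without a p-value.

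The 8 libraries came from 3 prostate cancer lines, each in a form sensitive to the antiandrogen enzalutamide and a resistant form labelled ENZR. For C4-2B, which descends from LNCaP and grows after castration, there were 2 libraries of each form, all 4 from cells with luciferase and GFP transgenes. For CWR-R1, from a relapsed prostate xenograft, and for VCaP, from a vertebral metastasis, there was 1 library of each form, and the labels give no genotype. The labels name no drug dose, treatment time or clone for any resistant form. They call the C4-2B replicates biological without saying what was repeated, so p-values measure only the spread between these samples.

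The reads in listed genes numbered 14503586 to 20248655 per library. Values are the authors' scaled reads, close to reads-per-million (RPM), and 3 reads correspond to a value of 0.142 to 0.202. Levels set side by side across tables are reads-per-million over the shared genes only (shared-gene RPM). Over the 12868 shared genes, log2 levels of the replicate pairs correlated at r = 0.995 in C4-2B and 0.995 in C4-2BENZR. For the library labelled VCaPENZR, r was 0.940 with CWR-R1ENZR, 0.890 with CWR-R1 and 0.728 with VCaP. By this measure it stood nearer to both CWR-R1 libraries than to the line in its label, and each receptor value of it is given below with the CWR-R1 libraries beside it. All 9 prostate epithelial markers were listed in every table, and their summed value was 2814 to 5986 per library. Of the 9, 6 were at least 2-fold lower in the library labelled VCaPENZR than in VCaP, against 22% of all genes. From VCaP to that library KLK3, the gene of prostate-specific antigen, was at 465 and 0.774, FOLH1 at 1184 and 26.8, and HOXB13 at 712 and 34.8. KRT8, a luminal keratin, made up much of the sum there, at 446 and 3444. KLK3 was 2045 in C4-2B and 48.6 in C4-2BENZR (limma adjusted p = 1.47e-20), and 1.96 in CWR-R1 with no read in CWR-R1ENZR.

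Receptor tyrosine kinases are membrane proteins that pair up when a growth factor binds, phosphorylate one another and pass the signal through adaptors to the RAS-ERK and PI3K pathways. PDGFRA binds platelet-derived growth factors and is best known from mesenchymal cells, and MET binds hepatocyte growth factor (HGF), which stromal cells make. The FGF receptors need heparan sulphate on the cell surface to bind most FGFs, and in the prostate they carry signals between stroma and epithelium. FGFR2 is the receptor typical of normal prostate epithelium. RET binds ligands of the GDNF family together with a GFRA co-receptor.

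PDGFRA had the lowest ratio of resistant to sensitive. MET was lower in the resistant library of all 3 labelled lines, and FGFR2 was higher in all 3. The promoters of these receptors are therefore shown. Each is the 250 bases before a RefSeq transcript start in GRCh38.p14, at chr4:54233710-54233959 on the + strand, chr7:116671946-116672195 on the + strand and chr10:121598445-121598694 on the − strand. Capitals mark matches, on either strand, to the GC box GGGCGG and the CCAAT box CCAAT.
PDGFRA: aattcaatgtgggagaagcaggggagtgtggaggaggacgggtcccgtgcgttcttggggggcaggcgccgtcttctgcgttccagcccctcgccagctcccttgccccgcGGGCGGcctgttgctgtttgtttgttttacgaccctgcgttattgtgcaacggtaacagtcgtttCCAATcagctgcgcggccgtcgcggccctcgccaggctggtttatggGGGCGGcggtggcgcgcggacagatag
MET: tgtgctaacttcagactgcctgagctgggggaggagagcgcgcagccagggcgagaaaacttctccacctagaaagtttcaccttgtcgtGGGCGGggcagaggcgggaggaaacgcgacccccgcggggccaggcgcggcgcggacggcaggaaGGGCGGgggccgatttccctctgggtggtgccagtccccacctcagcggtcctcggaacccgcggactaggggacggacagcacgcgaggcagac
FGFR2: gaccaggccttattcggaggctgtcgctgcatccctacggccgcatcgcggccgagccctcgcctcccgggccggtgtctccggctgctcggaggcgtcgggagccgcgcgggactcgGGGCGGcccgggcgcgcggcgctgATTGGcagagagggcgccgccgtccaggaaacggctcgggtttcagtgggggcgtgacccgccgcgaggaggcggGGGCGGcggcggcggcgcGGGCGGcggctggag
The PDGFRA window held 2 GC boxes, 139 and 27 bases before the start, and 1 CCAAT box at 74. The MET window held 2 GC boxes, at 160 and 95, and no CCAAT box. The FGFR2 window held 3 GC boxes, at 132, 33 and 15, and 1 CCAAT box at 108. No window held TATAAA or the androgen receptor half-site TGTTCT, which says only that these letters are not in these windows. Of 27305 RefSeq promoter windows of this length, 42.3% held a GC box, 33.0% a CCAAT box, 11.1% TATAAA and 12.4% TGTTCT. The windows held 64% G or C and 25 CpG for PDGFRA, 68.4% and 24 for MET, and 78.4% and 42 for FGFR2, against medians of 58% and 11 over all windows. The first 14 bases of a longer FGFR2 transcript in GENCODE v29 lie at the end of the FGFR2 window. PDGFRA and FGFR2 have further RefSeq starts that are not shown, and their windows lie below both medians. The other PDGFRA window, at chr4:54229043-54229292, held 46.8% G or C, 8 CpG and neither a GC box nor a CCAAT box. The other FGFR2 windows held 42.8% to 50% G or C and 3 to 7 CpG.

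**Figure D1:**
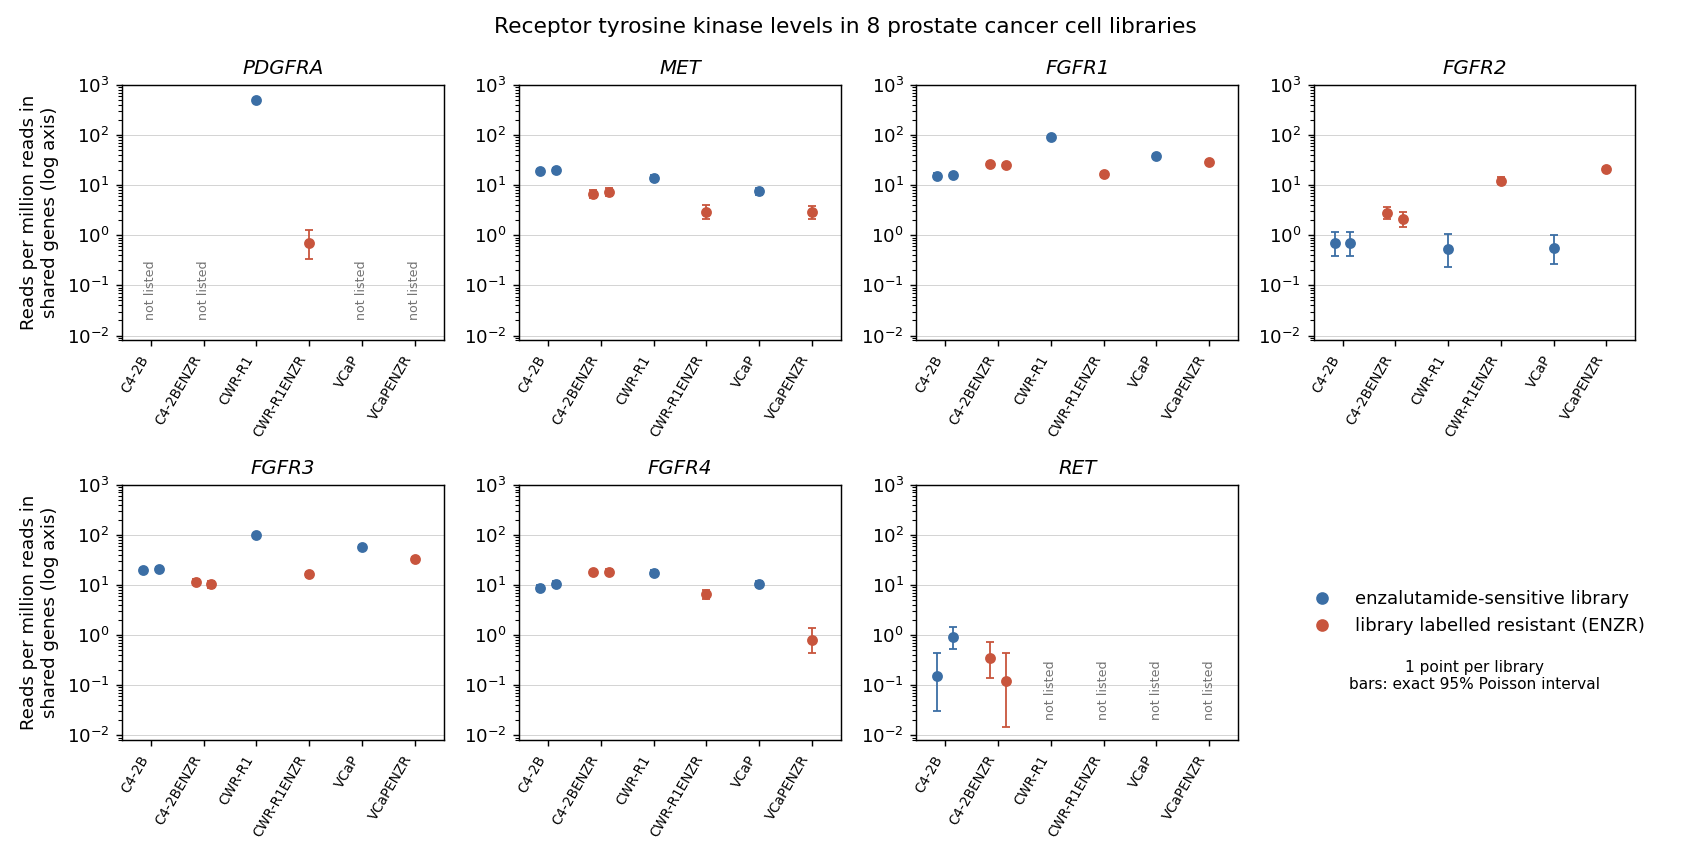
Level of each listed receptor (log axis, reads-per-million over the 12868 genes shared by the 3 tables) in the 6 cell forms, 1 point per library, with exact 95% Poisson intervals that cover counting error only. FGFR2 sits below 1 in every sensitive library and above 2 in every resistant one, while PDGFRA lies at 509 in CWR-R1 against 0.698 in CWR-R1ENZR.

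PDGFRA was the most abundant of the receptors in sensitive CWR-R1 and nearly absent from its resistant form. Its value was 517 in CWR-R1, from 7669 reads, and 0.670 in CWR-R1ENZR, from 10 reads. The ratio was 772-fold lower in the resistant library (95% interval 420 to 1611, exact binomial, counting error only; 1 library each). In a bulk library, fewer cells carrying the transcript and less transcript per cell cannot be told apart. Per kilobase of exon, as shared-gene RPM per kilobase, PDGFRA stood at 64.7 in CWR-R1, above FGFR3 at 22.1 and FGFR1 at 13.8, and at 0.0887 in CWR-R1ENZR, the lowest of the 6 receptors listed there.

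Since PDGFRA marks fibroblasts, the other fibroblast markers were read beside it. Of the 10 markers listed by symbol, 3 were listed in the CWR-R1 table (COL1A1, LUM and TAGLN), and their summed value was 38.6 in CWR-R1 and 74.7 in CWR-R1ENZR. The sum thus moved the opposite way to PDGFRA. LUM alone among them was lower in the resistant library, at 11.6 and 2.81, while COL1A1 went from 22.2 to 63.6. PDGFRB, the second PDGF receptor and a fibroblast marker, was listed only for C4-2B, at 2.63 and 1.09 in the sensitive and 0.898 and 1.22 in the resistant libraries. The summed fibroblast value was 18.6 to 24.2 in C4-2B and 54.7 to 58.8 in C4-2BENZR, mostly COL1A1, which rose there (13.7 to 50.8, limma adjusted p = 1.17e-09). In the VCaP table it was 31 in VCaP and 21.5 in the library labelled VCaPENZR, with LUM at 21.2 and 0.238. Of 8 endothelial markers 2 were listed in each table. Their sum was 7.61 to 8.41 in C4-2B and 4.77 to 4.98 in C4-2BENZR, 13.8 and 30.2 in CWR-R1 and CWR-R1ENZR, and 5.58 and 22.6 in the VCaP pair. VWF, one of them, was 4.62-fold and 5.93-fold higher in the last 2 resistant libraries, but fell from 7.39 to 3.71 in C4-2B (limma adjusted p = 0.000747). ESAM, listed beside VWF for CWR-R1 and VCaP, went from 8.03 to 3.69 in the CWR-R1 pair and from 2.45 to 3.99 in the VCaP pair. Of 8 blood cell markers 2 or 3 were listed, with sums of 15.9 to 18.2 in C4-2B and 10.1 to 12.6 in C4-2BENZR. The sums were 2.83 and 3.89 in the CWR-R1 pair and 5.81 and 11.8 in the VCaP pair. In the VCaP pair CD68 was 0.512 and 9.82, while CD14 was 2.85 and 0.595 and HBA1 2.45 and 1.37. What part other cells have in any receptor level was not tested.

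The neighbours of PDGFRA on chromosome 4 did not share its ratio. Of the 5 listed genes on each side, 1 was at least 2-fold higher in CWR-R1ENZR (LNX1, 3.28-fold) and 3 were at least 2-fold lower (CHIC2 2.18-fold, SRD5A3 4.49-fold and NMU 3.76-fold). Their log2 ratios ran from -2.07 to 1.52 with a median of 0.15, against -8.28 for PDGFRA. Among all genes 9.79% were at least 2-fold higher and 10.3% lower. KIT, the receptor gene next to PDGFRA, was below the low-value limit of 5 and so is not among these neighbours; its value was 0.270 in CWR-R1 and 3.02 in CWR-R1ENZR.

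MET, the HGF receptor, was lower in the resistant library of every labelled line. In C4-2B it measured 19.9 and 20.2 in the sensitive replicates and 6.38 and 7.01 in the resistant ones. The groups did not overlap, and the means of 20.0 ± 0.197 and 6.69 ± 0.444 (SD, n = 2 each) differed 3.0-fold, or -1.45 on the log2(value + 1) scale (SE 0.14). In CWR-R1 it went from 14.4 to 2.81, 5.13-fold lower (3.67 to 7.32), from 214 and 42 reads. The library labelled VCaPENZR had 2.80 against 7.69 in VCaP, 2.75-fold lower (1.96 to 3.91). On the shared-gene scale that library was level with CWR-R1ENZR (ratio 0.998, interval 0.644 to 1.55) and 4.85-fold below CWR-R1.

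Across the 6 cell forms MET was highest in C4-2B at 19.5 shared-gene RPM, followed by CWR-R1 at 14.2. VCaP at 7.58 and C4-2BENZR at 6.99 were not separated by their intervals, nor were CWR-R1ENZR and the library labelled VCaPENZR, both at 2.93. Every sensitive form thus stood above the form labelled as its resistant form, and resistant C4-2B stood at the level of sensitive VCaP. Over the shared genes the library labelled VCaPENZR stood nearer to the CWR-R1 libraries than to VCaP. Whether it counts as a separate lineage was not tested. Near MET on chromosome 7, 3 of 10 neighbours were at least 2-fold lower in CWR-R1ENZR (MDFIC 3.24-fold, ST7 2.34-fold and CTTNBP2 10.2-fold) and 0 were higher. Of all genes 10.3% were lower and 9.79% higher. TES and CAPZA2, on either side of MET, went from 76.8 to 90.7 and from 147 to 74.7.

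**Figure D2:**
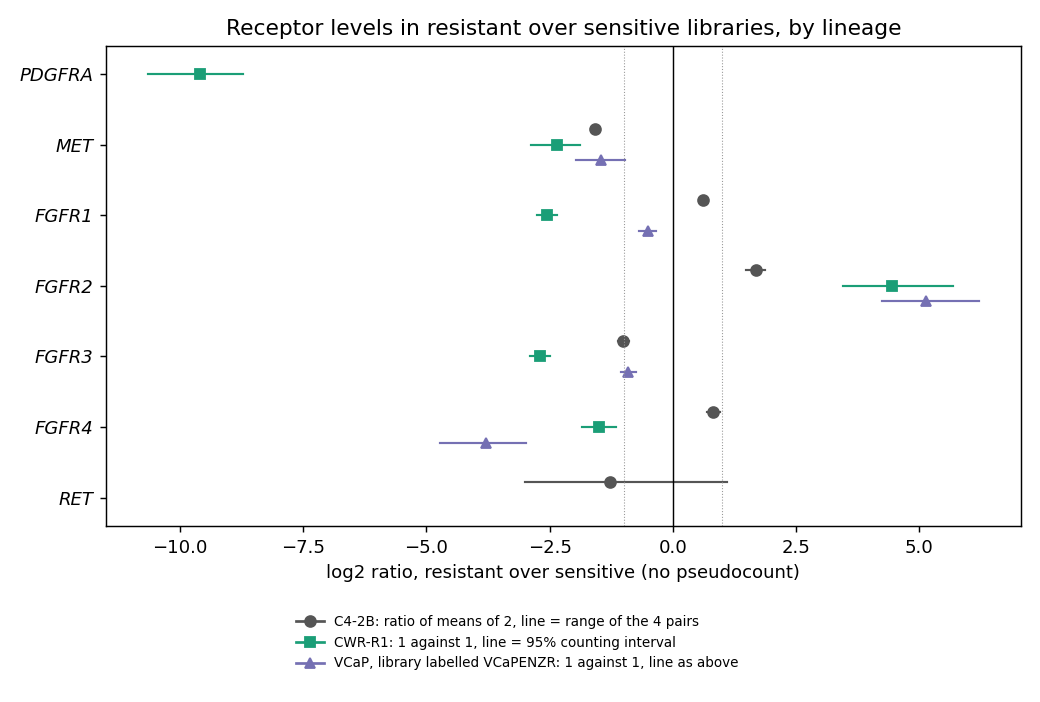
Log2 ratio of each receptor's value in the resistant over the sensitive library or mean, by lineage; C4-2B points are ratios of means of 2 with the range over the 4 replicate pairs as a line, and CWR-R1 and VCaP points are single libraries with 95% counting intervals. MET and FGFR3 lie left of 0 in all 3 labelled lines and FGFR2 right of 0 in all 3. FGFR1 and FGFR4 lie right of 0 in C4-2B and left of 0 in CWR-R1 and VCaP.

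FGFR2 was the receptor that stood higher in the resistant library of every labelled line, from a low base in each. In C4-2B it measured 0.722 and 0.725 in the sensitive replicates, 14 reads in each, and 2.65 and 2.03 in the resistant ones, from 56 and 35 reads. The groups did not overlap; the means were 0.723 ± 0.00182 and 2.34 ± 0.438 (SD, n = 2 each), 3.23-fold apart, and 0.95 apart on the log2(value + 1) scale (SE 0.23). FGFR2 passed the low-value limit only through the group in which it is high, and no longer passed it without either one of the C4-2BENZR replicates.

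In CWR-R1, FGFR2 went from 0.540 to 11.9, from 8 to 177 reads, 22-fold higher (10.9 to 51.7). The library labelled VCaPENZR had 20.1 against 0.569 in VCaP, from 337 and 10 reads, 35.2-fold higher (18.9 to 74.2). Set against the CWR-R1 libraries on the shared-gene scale, it was 1.70-fold above CWR-R1ENZR (1.41 to 2.05) and 39.5-fold above CWR-R1 (19.8 to 92.3). The order of forms was the library labelled VCaPENZR at 21.0 RPM, CWR-R1ENZR at 12.4 and C4-2BENZR at 2.44, each separated from the next. The 3 sensitive forms followed at 0.703 in C4-2B, 0.562 in VCaP and 0.531 in CWR-R1, and were not separated from one another.

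Around FGFR2 on chromosome 10, 0 of 10 neighbours were at least 2-fold higher in CWR-R1ENZR and 1 was lower (NSMCE4A, 2.25-fold), with a median log2 ratio of 0.22, where 20.1% of all genes were past 2-fold. BAG3 and HTRA1 lay just under that limit, each 1.99-fold higher. INPP5F was 1.52-fold higher, and TACC2 was 75.1 in CWR-R1 and 113 in CWR-R1ENZR. In the VCaP table, of these 10, 5 were at least 2-fold higher (BAG3, INPP5F, TACC2, PLEKHA1 and HTRA1, by 2.63-fold to 7.12-fold) and 0 lower, with a median of 1.14, where 43.1% of all genes were past 2-fold. The highest log2 ratio among them was 2.78 for TACC2, below the 3.75 of FGFR2. Whether the 2 tables differ here was not tested.

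The splicing of FGFR2 into its epithelial or mesenchymal form is set by ESRP1, ESRP2, RBFOX2, PTBP1 and HNRNPA1; the values are per gene and do not distinguish the forms. In C4-2BENZR, 3 of these 5 regulators fell and 0 rose, in a contrast where 56.8% of all genes tested were called, so the share called is near that of all genes. ESRP2, which favours the epithelial form, went from 152 to 116 (limma adjusted p = 2.00e-05), ESRP1 from 102 to 83.1 (limma adjusted p = 0.00153) and PTBP1, which represses exons, from 668 to 566 (limma adjusted p = 0.000374). With scaling by total counts 1 of the 5 rose and 3 fell. In the CWR-R1 and VCaP tables none (0 of the 5) differed 2-fold in either direction, against 20.1% and 43.1% of all genes.

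FGFR3 was lower in the resistant library of all 3 labelled lines. In C4-2B it measured 20.2 and 21.5 in the sensitive replicates and 10.9 and 9.90 in the resistant ones. These groups did not overlap, with means of 20.9 ± 0.929 and 10.4 ± 0.716 (SD, n = 2 each), 2.01-fold apart, or -0.94 on the log2(value + 1) scale (SE 0.13). In CWR-R1 it went from 100.4 to 15.6, 6.43-fold lower (5.60 to 7.41), and of the receptors there only PDGFRA had a lower ratio. The library labelled VCaPENZR had 31.4 against 58.9 in VCaP, 1.87-fold lower (1.68 to 2.08), and on the shared-gene scale stood 2.02-fold above CWR-R1ENZR and 3.0-fold below CWR-R1. From the highest form down, FGFR3 measured 98.8 RPM in CWR-R1, 58.1 in VCaP, 32.9 in the library labelled VCaPENZR, 20.3 in C4-2B, 16.3 in CWR-R1ENZR and 10.9 in C4-2BENZR. Of these neighbours in the order, C4-2B and CWR-R1ENZR were not separated. All 10 listed genes around FGFR3 on chromosome 4 had log2 ratios below 0 in CWR-R1, from -1.16 to -0.04. Of them, 2 (SLBP and WHSC1) were at least 2-fold lower, against 10.3% of all genes.

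FGFR1 and FGFR4 went one way in C4-2B and the other way in the remaining labelled lines. FGFR1 measured 15.8 and 16.5 in C4-2B and 25.3 and 24.1 in C4-2BENZR, groups that did not overlap. The means, 16.1 ± 0.479 and 24.7 ± 0.834 (SD, n = 2 each), gave a 1.53-fold higher level in the resistant cells, 0.59 on the log2(value + 1) scale (SE 0.11). In CWR-R1 it went from 91.4 to 15.7, 5.83-fold lower (5.07 to 6.73). The library labelled VCaPENZR had 27.7 against 39.5 in VCaP, 1.42-fold lower (1.27 to 1.61), and on the shared-gene scale it was 1.77-fold above CWR-R1ENZR and 3.11-fold below CWR-R1.

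The level of FGFR1 across forms was highest in CWR-R1 at 89.9 RPM and in VCaP at 38.9. The library labelled VCaPENZR at 29 and C4-2BENZR at 25.8 were not separated, nor were CWR-R1ENZR at 16.3 and C4-2B at 15.7. Around FGFR1 on chromosome 8, 4 of 10 listed neighbours were at least 2-fold lower in CWR-R1ENZR and 0 were higher. Over all genes 10.3% were lower and 9.79% higher. The 4 lower neighbours were BAG4 (2.32-fold), DDHD2 (2.99-fold), PPAPDC1B (10.5-fold) and LETM2 (4.47-fold), all on the same side of FGFR1. The median log2 ratio of the 10 was -0.83, against -2.47 for FGFR1.

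FGFR4, the receptor for FGF19-type endocrine ligands, measured 9.03 and 10.7 in C4-2B and 17.2 and 17.6 in C4-2BENZR. The groups did not overlap, and the means of 9.87 ± 1.19 and 17.4 ± 0.252 (SD, n = 2 each) differed 1.77-fold, or 0.77 on the log2(value + 1) scale (SE 0.14). In CWR-R1 it went from 17.7 to 6.30, 2.82-fold lower (2.22 to 3.60). In the library labelled VCaPENZR it was close to absent, at 0.774 from 13 reads against 10.7 from 188 reads in VCaP, 13.8-fold lower (7.89 to 26.5). Here that library also differed from the line it most resembles, standing 8.11-fold below CWR-R1ENZR (4.52 to 15.8) and 21.6-fold below CWR-R1.

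FGFR4 was highest in C4-2BENZR at 18.2 RPM and in CWR-R1 at 17.5, which were not separated. VCaP at 10.6, C4-2B at 9.60 and CWR-R1ENZR at 6.56 followed, each not separated from the next, and the library labelled VCaPENZR came last at 0.810. On chromosome 5, 4 of the 10 listed neighbours were at least 2-fold lower in that library than in VCaP (SNCB, TSPAN17, UNC5A and NSD1) and 1 was higher (MXD3, 3.33-fold). Among all genes 22% were lower and 21.1% higher, 43.1% in either direction, so the share of neighbours past 2-fold is near that of all genes.

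RET was near the limit of detection. It had 3 and 18 reads in the C4-2B replicates, values of 0.155 and 0.932, and 7 and 2 reads in the C4-2BENZR replicates, values of 0.331 and 0.116. The groups overlapped, RET did not pass the low-value limit of 1 in at least 2 libraries, and no difference was detectable at this depth.

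Counted over the receptors, 5 passed the low-value limit in C4-2B. By limma at an adjusted p below 0.05, 3 of them were called higher and 2 lower. FGFR2, among the higher, passed the limit only through the resistant group. Of the 13280 genes tested there, 56.8% were called, 27.8% higher and 29% lower; with scaling by total counts the split over all genes was 4757 higher and 2923 lower in place of 3691 and 3856. In CWR-R1ENZR 1 of 6 receptors was at least 2-fold higher and 5 were lower, against 20.1% of 12462 genes past 2-fold, 9.79% higher and 10.3% lower. In the library labelled VCaPENZR 1 of 5 was higher and 2 were lower, against 43.1% of 12502 genes, 21.1% higher and 22% lower. Nothing is read from these counts, since the receptors were chosen on these contrasts.

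Lengths differ between the receptors, so their levels were compared per kilobase of exon in GENCODE v29 (FGFR1 6.518 kb, FGFR2 6.704 kb, FGFR3 4.46 kb and FGFR4 3.196 kb). FGFR3 held the largest share of the FGFR1 to FGFR4 sum per kilobase in both C4-2B replicates (45.9% and 44.6%), CWR-R1 (53.4%), CWR-R1ENZR (36.3%), VCaP (58.2%) and the library labelled VCaPENZR (48.5%). In C4-2BENZR FGFR4 led instead, with 44.5% and 46.9%, and FGFR3 held 20.2% and 18.9%. The share of FGFR2 was 1.09% and 1.00% in C4-2B and 3.26% and 2.58% in C4-2BENZR. It was 0.191% in CWR-R1 against 18.3% in CWR-R1ENZR, and 0.374% in VCaP against 20.6% in the library labelled VCaPENZR. In CWR-R1ENZR FGFR2 at 1.84 shared-gene RPM per kilobase and FGFR4 at 2.05 had overlapping intervals. MET per kilobase was below FGFR3 in every library, at 2.90 and 2.93 in C4-2B and 0.438 in CWR-R1ENZR.

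**Figure D3:**
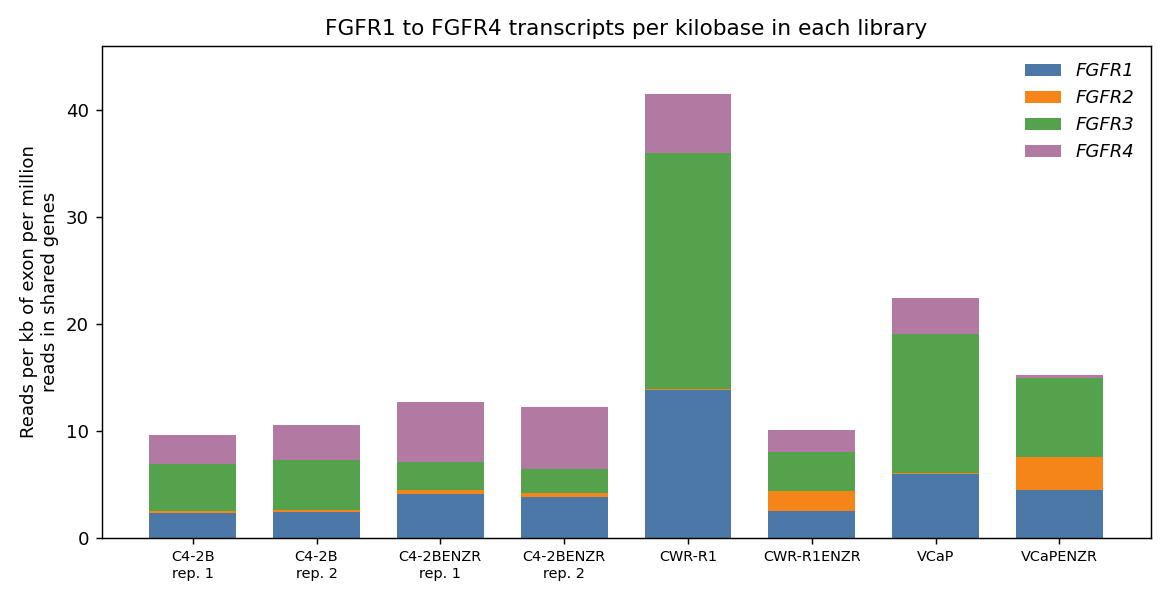
Shared-gene RPM per kilobase of exon for FGFR1 to FGFR4, stacked, in each of the 8 libraries. FGFR3 is the largest part of the bar except in both C4-2BENZR replicates, where FGFR4 is, and FGFR2 is visible as a large part only in CWR-R1ENZR (18.3%) and the library labelled VCaPENZR (20.6%).

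Across the 6 cell forms, with the C4-2B replicates averaged, the log2 level of MET ran against that of FGFR2 (r = -0.89), FGFR2 ran against FGFR4 (r = -0.81) and FGFR1 ran with FGFR3 (r = 0.85). These are descriptions over 6 forms that share lineages, and the other 7 pairs lay between -0.40 and 0.64. Among 12303 shared genes reaching a level of 5, those most like MET were SCARB1 (r = 0.993), the high-density lipoprotein receptor, ENPP1 (r = 0.993) and ACADL (r = 0.979). Those most like FGFR1 were AASDH (r = 0.980), LRRFIP2 (r = 0.977) and SNRPD2 (r = 0.974). FGFR2 was matched most closely by NOL4L (r = 0.996), ENGASE (r = 0.990) and THAP3 (r = 0.988). For FGFR3 the closest were HADH, an enzyme of fatty acid oxidation (r = 0.994), C7orf55-LUC7L2 (r = 0.991) and WWP1 (r = 0.989), and for FGFR4 SUOX (r = 0.996), EWSR1 (r = 0.993) and MTERF2 (r = 0.992).

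The ligands, co-receptors, adaptors and targets of these receptors were listed by role, 160 symbols in 10 lists. In C4-2B 101 of them passed the low-value limit, of which 36 rose and 25 fell, with a median log2 difference of 0.06. That is 60.4% called, against 56.8% of all genes tested. HGF, GDNF, ETV4 and SPRY3 (higher) and FGF13, SPRY2 and ETV5 (lower) passed the low-value limit only through the group in which they are high. Their calls are in these counts and are not read as support. In CWR-R1ENZR 27 of 105 were at least 2-fold higher and 5 lower, a median of 0.32, and in the library labelled VCaPENZR 34 of 101 were higher and 17 lower, a median of 0.21. These are 30.5% past 2-fold in CWR-R1, against 20.1% of all genes, and 50.5% in the VCaP table, against 43.1%. The median over all genes was -0.02 in CWR-R1 and nearer to 0 in the other tables. The lists were drawn up with earlier results of these data known, so the counts are descriptive.

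The transcripts of FGF ligands were few, with 1 of 22 listed in C4-2B, 7 in CWR-R1 and 4 in VCaP. FGF13, an intracellular family member that is not secreted, went from 3.05 to 0.917 in C4-2B (limma adjusted p = 0.000726; it passed the low-value limit only through the sensitive group) and from 117 to 12.5 in the VCaP table. FGF9, which is secreted and binds FGFR3, went from 0 to 18.8 in the library labelled VCaPENZR, at least 110-fold higher when the floor of 3 reads in VCaP stands for 0. In CWR-R1 it was 15.4, and 8.18 in the resistant form. FGF11 was 0.114 in VCaP and 18.8 in the library labelled VCaPENZR, and 19.2 and 29 in the CWR-R1 pair.

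Among the heparan sulphate proteoglycans and enzymes that help FGFs bind, 10 of 17 rose in C4-2BENZR and 3 fell. Of all genes tested, 27.8% were called higher and 29% lower. The list had a median log2 difference of 0.44. SDC2, a syndecan core protein, went from 1.65 ± 0.296 to 16.6 ± 0.497 (SD, n = 2 each; log2 difference 2.73, limma adjusted p = 1.67e-09). The glypican GPC3 rose from 16.2 to 39.1 (limma adjusted p = 4.63e-07) and the sulfotransferase HS6ST2 from 2.87 to 7.34 (limma adjusted p = 9.61e-05). The glypican GPC6 fell from 16.6 to 4.49 (limma adjusted p = 1.38e-07). The sulfotransferase HS2ST1 fell from 77.9 to 49.8 (limma adjusted p = 1.09e-06) and the polymerase EXT1 from 16 to 11.6 (limma adjusted p = 0.0118, and 0.0988 without C4-2BENZR replicate 1).

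In CWR-R1ENZR 2 of 16 genes of that list were at least 2-fold higher and 3 lower, against 9.79% and 10.3% of all genes. SDC2 again stood higher, at 25.3 and 127, and FGFRL1, a receptor relative without a kinase domain, went from 80.4 to 213. KLB, the co-receptor through which endocrine FGFs reach FGFR4 and FGFR1, was 12.5-fold lower (9.24 to 0.737). It falls just outside the rule for named genes and was picked after its values were seen. In C4-2B the KLB means were 4.42 and 4.27 in groups that overlapped (limma adjusted p = 0.835), and in the VCaP table KLB was 6.89 and 0.238. In the CWR-R1 table HS6ST2 went from 9.92 to 1.14 and GPC4 from 49.9 to 18.8. In the library labelled VCaPENZR 4 of 15 were higher and 4 lower, against 21.1% and 22% of all genes. From VCaP to that library HS6ST2 was 54.6 and 0.357, NDST1 223 and 43.6, GPC4 1.82 and 29.1, and SDC4 44.3 and 191. In the CWR-R1 pair NDST1 was 87.7 and 124, and SDC4 79.3 and 48.3.

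For PDGFRA, ligand transcripts were measured in every table. PDGFA, the ligand that pairs with PDGFRA most closely, went from 15.5 to 2.88 in CWR-R1, 5.38-fold lower, alongside the receptor. In C4-2B it fell from 3.44 to 1.16 (limma adjusted p = 0.000527), where PDGFRA was not listed. PDGFB and PDGFC differed by less than 2-fold in CWR-R1 (21.6 and 24.5, and 16.5 and 13). In the library labelled VCaPENZR PDGFB went from 8.60 to 28.2 and PDGFC from 3.42 to 16.8.

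For MET, the list covers HGF, the proteases that activate it, their inhibitors and partners of the receptor. In CWR-R1ENZR 7 of its 8 genes past the low-value limit were at least 2-fold higher and 0 lower. Over all genes 9.79% were higher and 10.3% lower. The list had a median log2 ratio of 1.45, and MET itself was 5.13-fold lower. The sister receptor MST1R went from 11.7 to 84.4, the protease inhibitor SPINT1 from 119 to 489, and the proteases HPN and ST14 from 15 to 51.6 and from 53.4 to 160. HGF was not listed in the CWR-R1 table.

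In C4-2B 3 of 9 genes of the HGF list rose and 2 fell, a share near the 56.8% called among all genes tested. With scaling by total counts 3 rose and 1 fell, and the median log2 difference of the list moved from -0.01 to 0.09. HPN fell from 76.0 ± 5.0 to 36.7 ± 5.41 (SD, n = 2 each; limma adjusted p = 1.03e-07). HGF had no read in either sensitive replicate and values of 3.21 and 2.37 in the resistant ones; it passed the low-value limit only through the group in which it is high, so its call is not read as support. PLXNB1, a plexin that associates with MET, rose from 71.7 to 103 (limma adjusted p = 2.51e-05) and SPINT1 from 187 to 229 (limma adjusted p = 0.000232). The decrease of ST14, from 227 to 207, had a limma adjusted p of 0.0391, which became 0.632 with scaling by total counts. In the VCaP table HGF went from 17.1 to 0, at least 95.6-fold lower, HPN from 156 to 23.6, CD44 from 19.9 to 3.63 and MST1R from 8.65 to 65.5; CD44 was 2.09 and 1.81 in the CWR-R1 pair.

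Of the RET list, GDF15, the stress hormone that signals to RET through GFRAL in the brainstem, ranged from lower to much higher between lineages. It fell in C4-2BENZR from 121 ± 7.98 to 22.9 ± 3.43 (SD, n = 2 each; limma adjusted p = 4.12e-12). In CWR-R1ENZR it was 36.3-fold higher (24.2 to 879) and in the library labelled VCaPENZR 10.8-fold higher (73.2 to 791). SORL1, a sorting receptor that binds GDNF, was higher in every resistant form: from 15.4 to 38.6 in C4-2B (limma adjusted p = 4.22e-08), from 30.4 to 74.5 in CWR-R1 and from 65.1 to 144 in the VCaP table. GFRA1, the GDNF co-receptor, went from 22.3 to 2.88 in CWR-R1 and GDNF from 4.18 to 11.1. NRTN went from 2.05 to 10.6 in the VCaP table and was 17.5 and 15.2 in the CWR-R1 pair.

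AXL was not analysed, but its ligand GAS6 and its relatives TYRO3 and MERTK were listed in all 3 tables. GAS6 fell from 19.5 to 8.91 in C4-2B (limma adjusted p = 8.21e-06) and was higher in CWR-R1ENZR (14.1 to 29.8) and in the library labelled VCaPENZR (3.13 to 36.2). MERTK rose from 6.33 to 15.9 in C4-2B (limma adjusted p = 4.95e-06) and was lower in the library labelled VCaPENZR, at 5.18 against 25.2, with 10.7 and 6.03 in the CWR-R1 pair. TYRO3 measured 78 and 73.3 in C4-2B and 69.5 and 74.6 in C4-2BENZR and did not pass the test (limma adjusted p = 0.411).

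Among 25 other receptor tyrosine kinases, 4 of the 9 past the low-value limit rose in C4-2BENZR and 1 fell. The share called among all genes tested was 56.8%. PTK7, a kinase-dead receptor of the planar polarity pathway, rose from 26.0 to 96.8 (limma adjusted p = 7.90e-12) and LMTK3 from 9.17 to 20.7 (limma adjusted p = 4.88e-06). LMTK2 rose from 57.7 to 80.3 (limma adjusted p = 5.15e-05) and STYK1 from 9.64 to 14.3 (limma adjusted p = 0.00533, and 0.0699 without C4-2BENZR replicate 2). The collagen receptor DDR1 fell from 251 to 197 (limma adjusted p = 2.09e-05). DDR1 was 4.36-fold higher in CWR-R1ENZR (226 to 988) and 2.99-fold higher in the library labelled VCaPENZR (209 to 625), where AATK and STYK1 were lower (55 to 7.98 and 63.0 to 14.5). In the CWR-R1 pair AATK was 9.18 and 33.4 and STYK1 27.1 and 16.4.

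The adaptors and relay kinases shared by the receptors were listed nearly in full. In C4-2BENZR 12 of 32 rose and 5 fell, where 56.8% of all genes tested were called. With scaling by total counts 18 rose and 4 fell. GAB2, a docking protein, rose from 3.0 to 9.34 (limma adjusted p = 1.65e-05), PIK3R1, the p85-alpha subunit, from 30.6 to 61.2 (limma adjusted p = 4.59e-08) and FRS3, an FGF receptor substrate, from 5.42 to 9.75 (limma adjusted p = 0.00201). PIK3R2 fell from 224 to 142 (limma adjusted p = 5.95e-08), SHC1 from 202 to 131 (limma adjusted p = 6.72e-08) and MAP2K2 from 197 to 136 (limma adjusted p = 8.27e-07). FRS2, the main FGF receptor substrate, measured 37.2 and 37.1 against 36.4 and 36.2 (limma adjusted p = 0.760). In CWR-R1ENZR 2 of 32 were at least 2-fold higher, CBLB (16.9 to 55.3) and MAPK3 (72.4 to 162), and 0 lower. Of all genes 9.79% were higher and 10.3% lower. In the library labelled VCaPENZR 5 were higher and 3 lower, against 21.1% and 22% of all genes. MAPK3 went from 25.2 to 284, GAB2 from 3.93 to 38.8 and SRC from 269 to 51. In the CWR-R1 pair GAB2 was 34.3 and 43.5, and SRC 48.4 and 75.1.

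Genes induced by ERK, which act as feedback brakes on these receptors or as FGF targets, gave unlike counts in the 3 tables. In C4-2BENZR 3 of 16 rose and 7 fell, with a median log2 difference of -0.11, where 56.8% of all genes tested were called. Among these calls, ETV4 and SPRY3 (higher) and SPRY2 and ETV5 (lower) passed the low-value limit only through the group in which they are high. Their calls are therefore not read as support. PHLDA1 fell from 109 ± 8.53 to 14.9 ± 1.51 (SD, n = 2 each; limma adjusted p = 4.99e-13), and SPRY1, a Sprouty inhibitor, from 6.23 to 1.69 (limma adjusted p = 3.20e-05). SPRED1 rose from 15.5 to 25.9 (limma adjusted p = 8.12e-05) while SPRED2 went from 37.7 to 31.2 (limma adjusted p = 0.0183, and 0.122 with scaling by total counts). The ERK phosphatase DUSP4 was 11 and 11.5 (limma adjusted p = 0.727).

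In CWR-R1ENZR 9 of 18 genes of the same list were at least 2-fold higher and 0 lower, with a median log2 ratio of 1.02. Among all genes 9.79% were higher and 10.3% lower. DUSP5 went from 1.62 to 70.2 and DUSP6 from 8.97 to 95, both ERK phosphatases; DUSP4 went from 51.8 to 327 and IER3 from 9.45 to 105. In the library labelled VCaPENZR 11 of 16 were higher and 1 lower, with a median of 2.50, where 21.1% of all genes were higher and 22% lower. ETV4, a transcription factor of the FGF response, went from 0 to 94.8 (at least 555-fold higher), ETV5 from 0.114 to 80.0, DUSP5 from 2.11 to 241 and EPHA2 from 1.59 to 141. In the CWR-R1 pair ETV4 was 13.3 and 50.7, ETV5 24.4 and 36.4, and EPHA2 49.7 and 97.5. The difference between lineages was not tested, since the CWR-R1 and VCaP tables hold 1 library per group.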

How the data were processed

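Reads were placed on hg19, per the submitters' processing notes, and TAC genomics ran the differential expression, per the labels; how reads were aligned and counted is not given in the sources used here. Each line has its own table of scaled signal values, which the authors normalized apart from the others for the genes they called detectable; their columns of folds and p-values were left aside. Within 0.02 reads, 100% of the signal values are a whole number of reads times a factor fixed per library, and reads were recovered by division. Intervals, and the floor of 3 reads, describe counting error alone, because without molecular identifiers several reads can stem from the same molecule.

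Because the tables hold scaled counts, the C4-2B libraries were fitted with limma 3.58.1 (R 4.3.3; trend, two-sided, Benjamini-Hochberg over all genes) on log2(value + 1), keeping genes that reached 1 in 2 or more libraries, 2 against 2. In the single-library tables, genes reaching 5 that differed 2-fold or more in value + 1 were counted, with no test. The limma step was checked on simulated data. Levels across tables are reads-per-million over the shared genes, with exact Poisson 95% intervals; intervals of ratios are exact binomial (Clopper-Pearson). Exon lengths come from GENCODE v29, the order of neighbours from RefSeq and promoters from RefSeq GRCh38.p14. None of these is on hg19, the build on which reads were placed.

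The receptors, the 10 role lists and the 4 marker lists were chosen with earlier results of these data known. Named genes were the receptors; per list up to 4 called genes with the largest change (mean of at least 5; summed value of at least 10 in the single-library tables) and up to 2 in the opposite direction; 3 genes most like each receptor; and neighbours at least 2-fold apart for receptors at least 4-fold apart. Alternatives were edgeR 4.0.16 and DESeq2 1.42.0 on recovered reads, other scalings, filters and pseudocounts, a replicate block and each C4-2B library left out.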

Additional observations from a re-analysis of the deposited data

Results flagged for a closer look

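Several genes were called, or at least 2-fold apart, in opposite directions in different lineages; the differences between lineages were not tested, and for VCaP they rest on the library whose levels resemble CWR-R1ENZR. Values below are log2 differences of value + 1, resistant minus sensitive.

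FGFR1 was at 0.59 in C4-2B, -2.47 in CWR-R1 and -0.50 in VCaP, and FGFR4 at 0.77, -1.36 and -2.72. For FGFR1 the VCaP ratio lies under 2-fold.

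Lower in C4-2BENZR and higher in both other resistant libraries were DDR1 (-0.35, 2.12 and 1.57), GAS6 (-1.05, 1.03 and 3.17), GDF15 (-2.36, 5.12 and 3.42), IER3 (-0.52, 3.34 and 5.48), PHLDA1 (-2.80, 2.35 and 1.40) and SPRED2 (-0.27, 1.07 and 1.00). The C4-2B call of IER3 is weak: its limma adjusted p of 0.0381 became 0.0721 with scaling by total counts and 0.0691 to 0.233 without any 1 C4-2B or C4-2BENZR replicate, and its adjusted p was 0.0773 in edgeR, 0.0936 in edgeR with a replicate block and 0.161 in DESeq2. The call of SPRED2 was lost with scaling by total counts (limma adjusted p = 0.122), in DESeq2 (adjusted p = 0.0643), without C4-2BENZR replicate 1 (limma adjusted p = 0.125) and without C4-2B replicate 2 (limma adjusted p = 0.0570). HS6ST2 went the other way, with 1.10, -2.35 and -5.36.

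HPN was at -1.04 in C4-2B, 1.71 in CWR-R1 and -2.67 in VCaP, and ST14 at -0.13, 1.57 and -1.28. GPC4 was at 0.63, -1.36 and 3.41. The C4-2B call of ST14 was lost with scaling by total counts, in edgeR and DESeq2 and without C4-2B replicate 1 or either C4-2BENZR replicate (adjusted p of 0.0565 to 0.632). Between C4-2B and VCaP, ETV5 was at -0.94 and 6.18, HGF at 1.91 and -4.18, MERTK at 1.21 and -2.08, SRC at 0.33 and -2.37, and STYK1 at 0.53 and -2.04. The C4-2B call of ETV5 was lost without C4-2BENZR replicate 1 (log2 difference -0.79), and that of STYK1 without C4-2BENZR replicate 2 (log2 difference 0.43). The C4-2B calls of ETV5 and HGF rest on genes that passed the low-value limit only where they are high. Neither call is read as support. Between CWR-R1 and VCaP, AATK was at 1.76 and -2.64 and FGFRL1 at 1.39 and -1.46.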

How the results depend on the processing

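No receptor value changed sign in 97 recomputations of 21 values; 20 moved by more than their spread, mostly with a pseudocount of 4 or with CWR-R1 in place of VCaP as the reference of the library labelled VCaPENZR. With a pseudocount of 4, receptors at least 2-fold lower in that library numbered 1 in place of 2; with a low-value limit of 10, role-list genes at least 2-fold lower in CWR-R1ENZR numbered 3 in place of 5. In C4-2B a replicate block gave 4036 genes higher and 4212 lower over all genes and 39 and 25 in the role lists, edgeR 3767 and 3755, edgeR with the replicate block 4094 and 4106, and DESeq2 3151 and 3227. Whether same-numbered replicates share anything could not be settled. Their deviations from the group means correlated at 0.0502 over genes, and with 2 libraries per group both replicate numbers give the same value. Leaving out each replicate in turn gave 2694 to 3465 higher and 3254 to 3373 lower over all genes, and 28 to 35 and 20 to 23 in the role lists; a lone library is then assumed to vary like the other group. Scaling by total counts moved the median gene in C4-2B by 0.10, lowered the difference of MET to -1.36 and raised that of FGFR1 to 0.69. Low read numbers limit RET, PDGFRA in CWR-R1ENZR, FGFR4 in the library labelled VCaPENZR and FGFR2 in all sensitive libraries.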
